A study of Mus musculus with 3 samples.

Results

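The comparison set a library of mouse hypothalamic cells sampled in recovery after heat exposure (QS) against a library sampled at heat exposure (HS), with a food-intake-matched control library (PF) as the third point. The hypothalamus came from 8-week-old male mice, was dissociated with collagenase II, and was profiled by droplet single-cell RNA sequencing, in which each captured transcript carries a unique molecular identifier (UMI). There was 1 library in each group, and the sources used here do not give how many mice made up a library, how long recovery lasted or the hour of collection. Mice of the RT group were not analysed here.

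Barcodes with at least 500 UMIs and at most 20% mitochondrial UMIs were kept, which left 11517 cells of QS, 12305 of HS and 12645 of PF, so that QS and HS together held 23822 of the 36467 cells of the series. Each cell was then placed in a class by its summed level of marker genes, and genes were compared within the 7 classes that held at least 200 cells in each library. Those were endothelial cells, microglia, astrocytes, ependymal cells, oligodendrocytes, pericytes and vascular smooth muscle cells, with 9242 cells in QS, 9302 in HS and 9831 in PF. Because a group is 1 library, no test was made. Every difference is one between libraries, and condition and library cannot be told apart. The 95% intervals are exact and cover counting error only.

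The libraries were of like depth. They held 93295920 (QS), 103891747 (HS) and 100727912 (PF) UMIs, and the kept cells had medians of 6410, 6510 and 6366 UMIs and of 2.67%, 2.91% and 3.01% mitochondrial UMIs. QS and HS had 38 barcode sequences in common. In each of the 7 classes the class's own marker list was the highest of 20 marker lists in each library. Classing cells by these lists largely set this in advance, so it is no separate check of purity. The nearest approach of another list was that of the endothelial list in ependymal cells, with a median of 18.5 UMIs per 10000 in HS against 77.2 for the ependymal list. Between 13.97% and 14.48% of the kept cells of each library carried 2 marker lists at near levels and were left out as mixed, as were 2.30% to 2.87% with too few markers.

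Glucocorticoids are the main steroid hormones of the stress response. They act through a nuclear receptor, encoded by Nr3c1, that binds DNA and raises transcription of a set of genes shared by many tissues, among them Zbtb16, Fkbp5, Sgk1 and Tsc22d3. Heat raises transcription of cytosolic chaperones through heat shock factor, while cold-inducible RNA-binding proteins such as Cirbp move the other way with temperature. Immediate early genes such as Fos are transcribed within minutes of a stimulus, interferon-stimulated genes are the targets of type I interferon signalling, and the genes of cholesterol synthesis are raised together when cell sterol is low.

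The makeup of the 2 libraries differed most in small classes. Fibroblasts made up 2.19% of the kept HS cells, or 270, and 0.399% of those of QS, or 46, a ratio of 0.182 (95% interval 0.130 to 0.250). In PF they were 2.16%. Pituitary-type cells numbered 42 in PF, 50 in HS and 0 of 11517 in QS, where 3 cells, the limit taken for a count of 0, would be a share of 0.0260%. Tanycytes, the ependymal-lineage cells that line the floor of the third ventricle, stood at 0.462 times their HS share (0.351 to 0.604), and at 0.594 times when mixed cells led by the tanycyte list were included.

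Of the 7 large classes, oligodendrocytes, the myelin-forming cells, were higher in QS at 10.9% against 7.01% in HS and 7.35% in PF, a QS/HS ratio of 1.55 (1.42 to 1.69). Microglia, the resident macrophages of the brain, were 15.4% against 11.6% in HS and 14.4% in PF. Their QS/HS ratio was 1.33 (1.24 to 1.42) and their QS/PF ratio 1.07 (1.003 to 1.14). Endothelial cells, at 29.6% against 32.2%, and vascular smooth muscle cells, at 3.36% against 4.06%, were lower by ratios of 0.919 (0.878 to 0.962) and 0.829 (0.724 to 0.948). In PF they were 33.5% and 4.76%. The intervals for astrocytes (0.973 to 1.13), ependymal cells (0.833 to 1.03) and pericytes (0.920 to 1.19) included 1. The part that dissection and cell survival have in such shares was not tested.

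**Figure D1:**
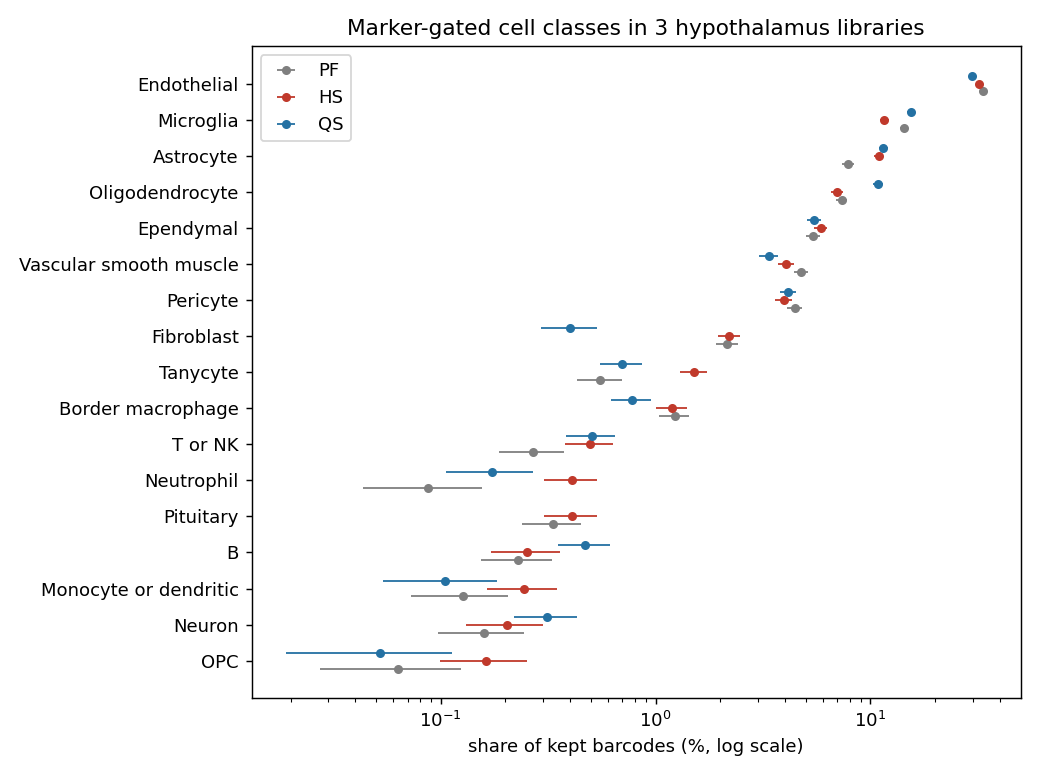
Share of kept cells in each class (percent, log axis) in the PF, HS and QS libraries, with exact 95% intervals for counting error. Fibroblasts stood at 2.19% in HS and 0.399% in QS, oligodendrocytes at 7.01% and 10.9%, and the pituitary class has no QS point because it held 0 cells.

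Gene by gene, QS and HS were close. Levels are given as CPM, a gene's UMIs in a class scaled to the same total in each library, and 44001 pairs of gene and class, over 11000 genes, had enough counts to be compared. A pair was called higher or lower where QS and HS differed 1.5-fold or more and the interval left out 1. Of all pairs, 436 (0.991%) were called higher in QS than in HS and 575 (1.31%) lower, over 836 genes. The same rule called 218 pairs higher (0.495%) and 271 lower (0.616%) in HS against PF, and 229 higher (0.52%) and 459 lower (1.04%) in QS against PF. The median size of the log2 ratio was 0.13 for QS against HS, beside 0.11 for HS against PF and 0.11 for QS against PF. These comparisons share libraries, HS or PF being on both sides, so their values are set side by side and nothing is drawn from their likeness.

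Called pairs were spread unevenly over the classes. Pericytes, the cells wrapped around capillaries, had 109 genes higher (1.7% of 6414 tested) and 147 lower (2.29%). They also had the fewest UMIs, 1755962 in QS, and the widest median size of log2 ratio at 0.172. Microglia had 19 higher (0.348% of 5460) and 33 lower (0.604%). Endothelial cells had 41 higher (0.661% of 6203) and 98 lower (1.58%), astrocytes 62 (0.897% of 6913) and 94 (1.36%), oligodendrocytes 37 (0.597% of 6194) and 49 (0.791%), and smooth muscle cells 62 (1.08% of 5753) and 99 (1.72%). Ependymal cells, the ciliated cells lining the ventricles, had more genes higher, 106 (1.5% of 7064), than lower, 55 (0.779%), and were the only 1 of the 7 classes with that balance. With TMM scaling microglia had it as well, at 28 higher and 25 lower.

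**Figure D2:**
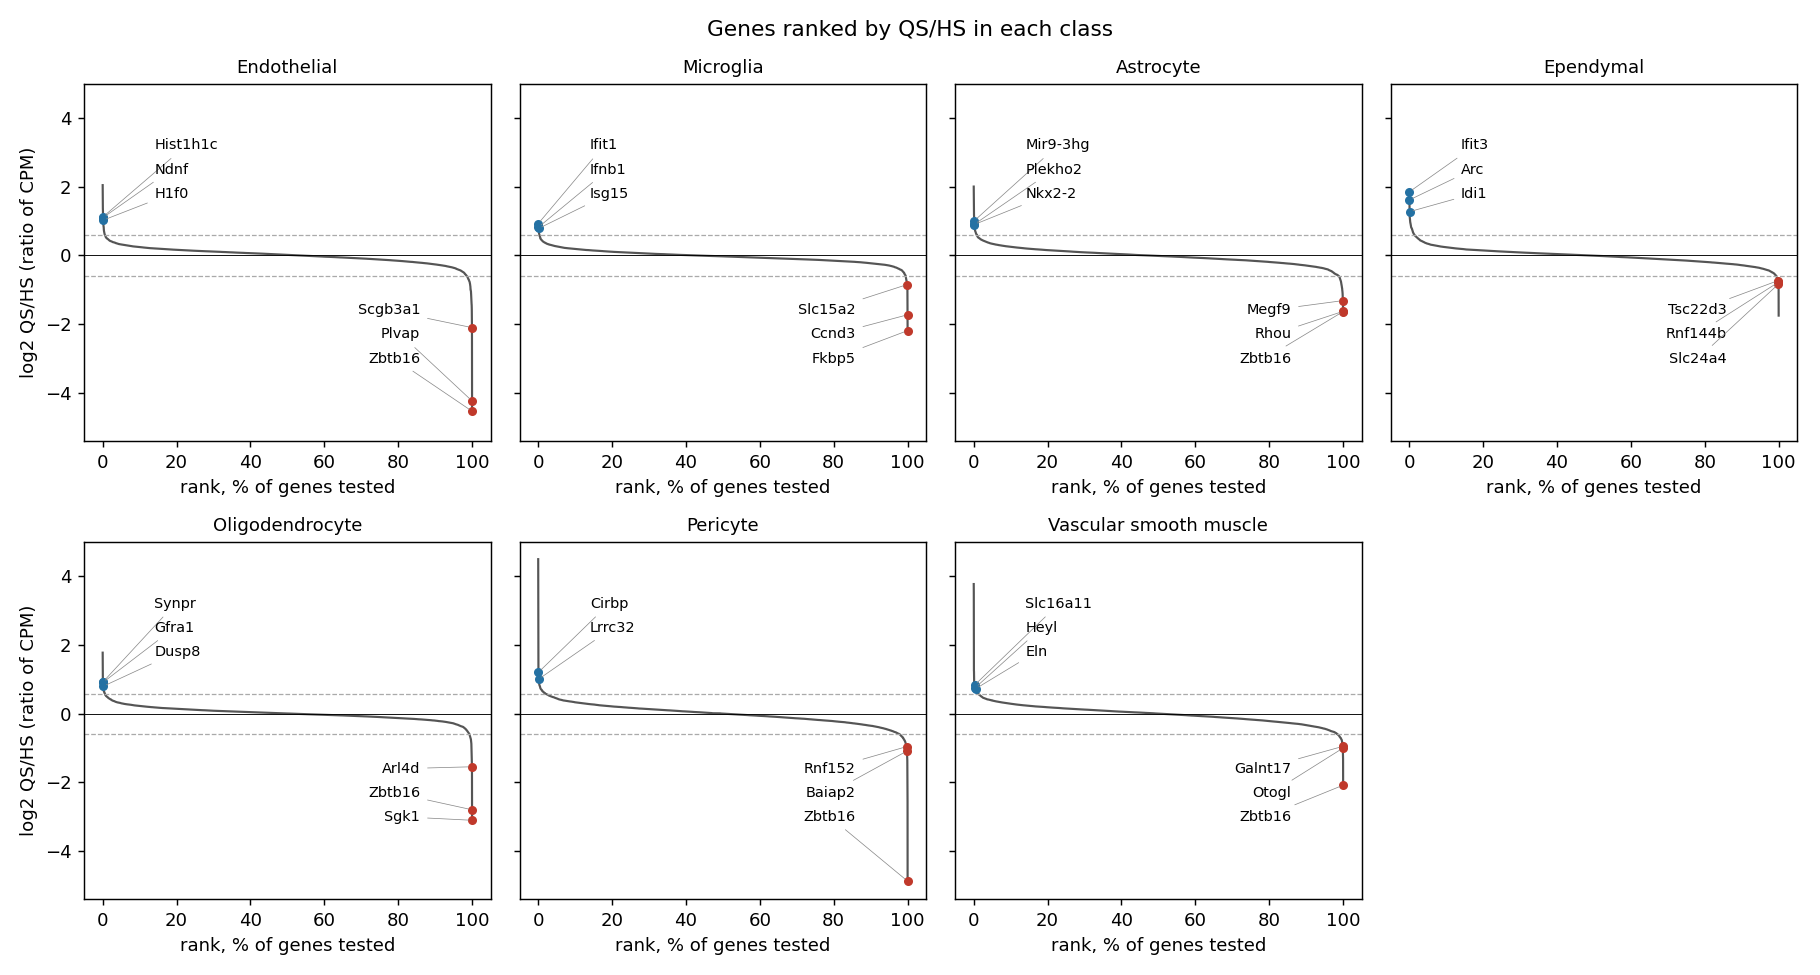
Log2 ratio of QS to HS for every tested gene, ordered by rank (percent of genes in the class), in each of the 7 classes, with dashed lines at a ratio of 1.5 either way and up to 3 of the highest and lowest genes open to naming marked. Most of each curve lies between the lines, and Zbtb16 is at the low end in 5 of the 7 panels.

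At the low end of the ranks stood Zbtb16 (chr9:48654297-48836222, minus strand), a zinc finger transcription factor induced by glucocorticoids. It could be tested in 5 classes and was called lower in QS in each. In endothelial cells it was at 37.0 CPM in PF, 194 in HS and 8.395 in QS, a QS/HS ratio of 0.0432 (0.0376 to 0.0493) and the last of 6203 ranks, and in 4 endothelial clusters taken 1 at a time the ratio lay between 0.0252 and 0.0557. In pericytes it was at 6.69, 83.5 and 2.85 CPM, where 5 UMIs in QS gave a ratio of 0.0341 (0.0109 to 0.0814). In each of these classes HS held the highest level of the 3 libraries.

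HS was the highest of the 3 libraries in the other classes too, with QS nearer to HS than in endothelial cells and pericytes. In oligodendrocytes Zbtb16 was at 34.6, 137 and 19.7 CPM in PF, HS and QS (QS/HS 0.144, 0.125 to 0.165), in smooth muscle at 33.1, 86.2 and 20.4 (0.236, 0.179 to 0.308) and in astrocytes at 56.9, 182 and 58.7 (0.322, 0.284 to 0.366). The QS level was called below that of PF in endothelial cells (ratio 0.227), oligodendrocytes (0.571) and smooth muscle (0.615). In astrocytes QS and PF were near each other, at a ratio of 1.03.

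Genes called 1 way in HS against PF and the other way in QS against HS were counted as reversing. There were 105 pairs up then down (0.239% of 44001) and 81 down then up (0.184%), over 165 genes, of which 152 reversed in 1 class. Both comparisons hold the HS library, so an unusual HS value alone gives a reversal. Of the pairs that went up and came down, 91 ended near PF, 13 ended called below PF and 1 stayed called above it. Of those that went down and came up, 70 ended near PF, 4 above it and 7 still below. Of the reversing pairs, 60 and 20 were open to naming, by a rule on level in the class that also leaves out kinds of gene such as haemoglobin.

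By class, up then down and down then up were 29 (0.419%) and 26 (0.376%) in astrocytes, 31 (0.483%) and 24 (0.374%) in pericytes, 18 (0.29%) and 7 (0.113%) in endothelial cells, and 14 (0.226%) and 2 (0.0323%) in oligodendrocytes. Smooth muscle had 7 (0.122%) and 15 (0.261%), ependymal cells 2 (0.0283%) and 7 (0.0991%), and microglia 4 (0.0733%) and 0 (0%). The genes that reversed in more than 2 classes were Zbtb16 in 5, Dbp in 4, and AY036118, Tsc22d3 and 6330403K07Rik in 3 each.

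**Figure D3:**
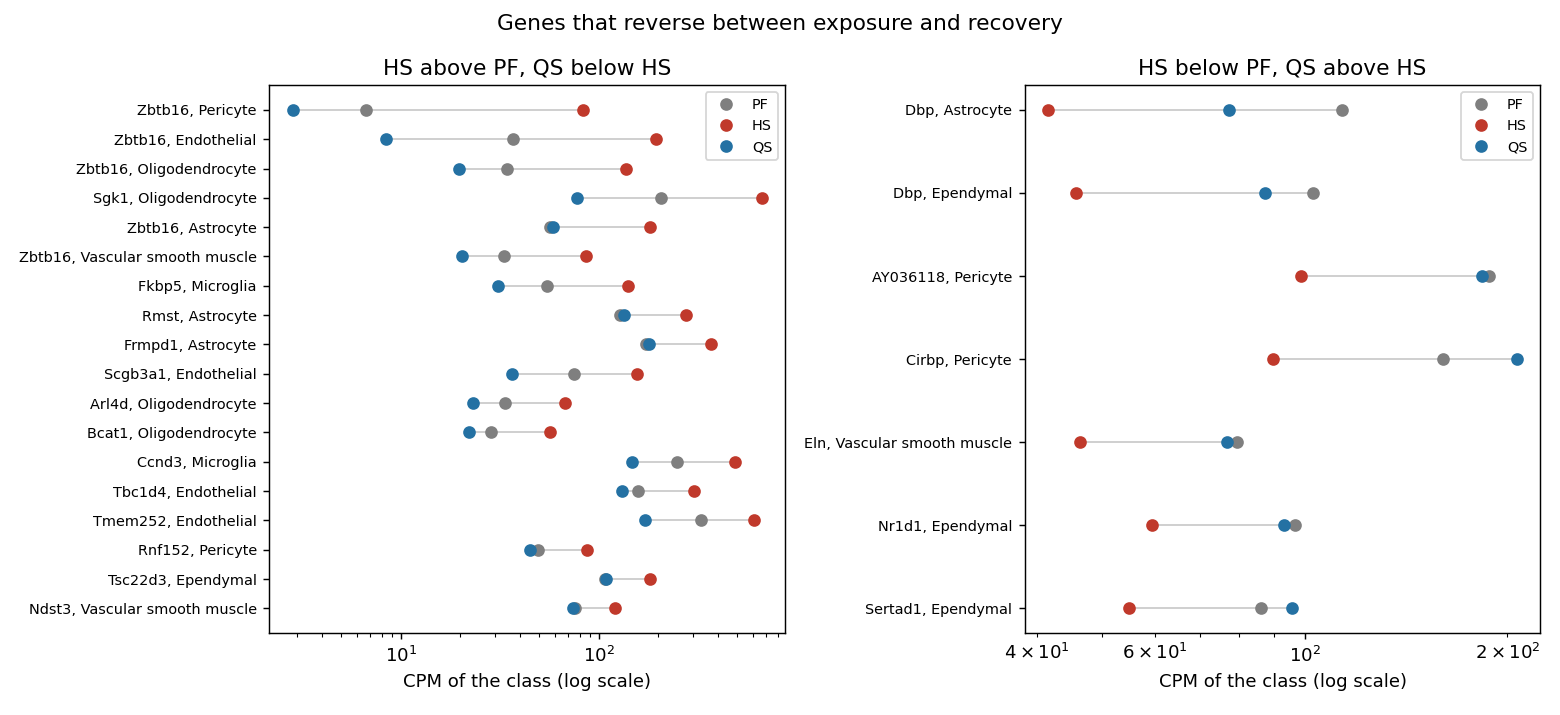
Level (CPM, log axis) in the PF, HS and QS libraries of the named reversing genes in their class, those up then down on the left and those down then up on the right. Each row is 1 gene in 1 class with 1 point a library, and oligodendrocyte Sgk1, at 207, 666 and 77.5 CPM, is among the widest on the left.

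In endothelial cells 16 of the reversing genes open to naming were highest in HS and 5 lowest, and those named here by size were of the first kind. Tmem252 was at 328, 606 and 171 CPM in PF, HS and QS (QS/HS 0.281, 0.272 to 0.290). Tbc1d4, a Rab GTPase-activating protein that acts in glucose transporter traffic, was at 159, 301 and 131 (0.435, 0.419 to 0.452). Scgb3a1, a secretoglobin, was at 74.7, 155 and 36.2 (0.233, 0.218 to 0.250). Within the 4 endothelial clusters with enough cells, the QS/HS ratio ran from 0.150 to 0.380 for Tmem252, from 0.371 to 0.481 for Tbc1d4 and from 0.133 to 0.308 for Scgb3a1. Tmem252 and Scgb3a1 were also called below PF in QS, with ratios of 0.520 and 0.485, while Tbc1d4 was at 0.827.

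Plvap (chr8:71497765-71511752, minus strand), which encodes the diaphragm protein of fenestrated capillaries, was at 46.1, 51.3 and 2.72 CPM in endothelial cells of PF, HS and QS, a QS/HS ratio of 0.0531 (0.0415 to 0.0672). A cluster of cells that held most of it moved with this level. It held 84.1% of the gene's HS UMIs and was 1.87% of endothelial cells in HS and 0.0881% in QS, or 62, 74 and 3 cells in PF, HS and QS. Within it Plvap stood at 2849, 3020 and 2050 CPM. Outside it the gene was scarce and also lower in QS, for example at 9.32, 12.9 and 3.19 CPM in a larger cluster that held 115 UMIs in HS and 22 in QS.

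The endothelial genes open to naming with the highest QS/HS ratios were a pair of linker histones and a secreted factor, at ranks 7 to 9 of all tested. Hist1h1c was at 70.6, 55.9 and 122 CPM in PF, HS and QS (QS/HS 2.18, 2.06 to 2.31), and H1f0 at 97.2, 71.1 and 145 (2.04, 1.94 to 2.14). Ndnf, a secreted neurotrophic factor, was at 124, 101 and 217 (2.15, 2.06 to 2.24). The ratio was above 1.5 in each of the 4 clusters for the histones (lowest 1.55) and between 1.40 and 2.42 for Ndnf. Of the transporters of the blood-brain barrier, 3 of 59 pairs were called higher and 0 lower, beside 0.991% and 1.31% of all pairs. All 3 were in endothelial cells, where 0.661% of all genes were higher. They were the transferrin receptor Tfrc (263, 229 and 434 CPM in PF, HS and QS, ratio 1.90), the organic anion transporter Slc22a8 (281, 248 and 379, ratio 1.53) and the lipid transporter Mfsd2a (144, 137 and 206, ratio 1.504).

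Across the 7 classes, 20 genes of the glucocorticoid response gave 93 tested pairs, of which 30 were called lower in QS than in HS and 2 higher, where 1.31% and 0.991% of all pairs were. In HS against PF the same pairs had 13 higher and 0 lower, beside 0.495% and 0.616% of all pairs. In QS against PF they had 0 higher and 17 lower, beside 0.52% and 1.04%. All 13 that were higher in HS than in PF were among the 30, and thus reversed. Among the 13 was Lcn2 in pericytes, where 1 HS cell held 52.9% of its UMIs. The receptors and their cofactors were called in 0 of 42 pairs, the receptor gene Nr3c1 having ratios of 0.927 to 1.16. The list's pairs lower in QS were 10 of 14 in astrocytes, 7 of 13 in oligodendrocytes, 6 of 16 in endothelial cells, 4 of 15 in pericytes, and 1 each in microglia (of 10), ependymal cells (of 12) and smooth muscle (of 13). Of all genes tested in a class, from 0.604% (microglia) to 2.29% (pericytes) were lower.

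The median log2 QS/HS ratio of the list was -0.68 in astrocytes, -0.63 in oligodendrocytes, -0.43 in pericytes and -0.37 in endothelial cells, where all tested genes had medians of -0.01, 0.01, 0.00 and 0.02. It was near 0 in microglia (0.02) and smooth muscle (-0.06), and above 0 in ependymal cells (0.18), where the phosphatase Dusp1, at a ratio of 1.74, and the cell cycle inhibitor Cdkn1a, at 1.67, were called higher. The HS/PF medians were 0.15 in astrocytes, 0.27 in oligodendrocytes, 0.19 in pericytes and 0.20 in endothelial cells.

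Sgk1 (chr10:21882184-21999903, plus strand), a kinase induced by glucocorticoids and mineralocorticoids, had the lowest QS/HS rank open to naming in oligodendrocytes. It was at 207 CPM in PF, 666 in HS and 77.5 in QS, a QS/HS ratio of 0.117 (0.109 to 0.125) and a QS/PF ratio of 0.375. The gene has 6 start-site windows in the RefSeq table (GRCm38.p6, 250 bases before to 50 after the start), and 1 of them, chr10:21993640-21993939 on the plus strand, held a match to the consensus of the glucocorticoid response element, searched on both strands. It is shown because Sgk1 and Mt1 were the list members with such a match, 2 of 17 with a window, where 0.537% of all 27025 genes with a window, and 0.475% of all 32851 windows, had one. The match, 188 bases before the start, is in capitals. It is a description of the letters and not of a bound site.
Sgk1: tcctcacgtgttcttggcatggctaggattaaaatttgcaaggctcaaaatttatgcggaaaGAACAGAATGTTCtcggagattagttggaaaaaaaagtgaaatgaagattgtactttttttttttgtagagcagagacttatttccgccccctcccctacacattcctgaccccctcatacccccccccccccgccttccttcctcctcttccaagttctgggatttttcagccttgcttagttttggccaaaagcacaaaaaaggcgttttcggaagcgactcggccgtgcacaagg

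Also among oligodendrocyte genes that reversed were Arl4d, a small GTPase (33.5, 67.6 and 23.2 CPM in PF, HS and QS, QS/HS 0.343), and Bcat1, the cytosolic branched-chain aminotransferase (28.6, 56.6 and 21.99, QS/HS 0.389). Both were highest in HS and ended below PF's level in QS without being called against it. The glucocorticoid list members called lower there included Klf9 (0.647), Cdkn1a (0.632), Per1 (0.611), Nfkbia (0.563) and Mt2 (0.553). The oligodendrocyte genes highest in QS by rank were not of that list. Synpr, a synaptic vesicle protein, was at 72.4, 64.0 and 121 CPM (QS/HS 1.90), Gfra1, a receptor of glial cell line-derived neurotrophic factor, at 42.8, 36.9 and 69.3 (1.88) and Dusp8, a phosphatase, at 35.2, 28.8 and 50.1 (1.74).

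In microglia the glucocorticoid list was represented by Fkbp5 (chr17:28399094-28517527, minus strand), a co-chaperone of the glucocorticoid receptor. It was at 54.9, 141 and 30.9 CPM in PF, HS and QS, a QS/HS ratio of 0.219 (0.197 to 0.244) and the lowest rank open to naming in that class. Ccnd3 (chr17:47505051-47599691, plus strand), which encodes a cyclin of the G1 phase, was at 247, 488 and 148 (0.302, 0.287 to 0.318). Both were highest in HS and called below PF in QS, with ratios of 0.562 and 0.597. The other 9 tested list members were called neither way in microglia.

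Tsc22d3 (chrX:140539528-140600659, minus strand), a glucocorticoid-induced leucine zipper protein, reversed in 3 classes. It was at 177, 284 and 123 CPM in PF, HS and QS in astrocytes (QS/HS 0.433), at 229, 377 and 190 in endothelial cells (0.504) and at 108, 181 and 108 in ependymal cells (0.600, 0.553 to 0.650). In each it was highest in HS. The astrocyte members lower in QS further included the hypoxia-inducible factor subunit Hif3a (84.8, 155 and 76.4 CPM, ratio 0.494), Klf9 (264, 355 and 211, ratio 0.594) and the metallothionein Mt1 (1872, 1761 and 1169, ratio 0.664), the last of which was not higher in HS than in PF. Cdkn1a (0.398), Per1 (0.505) and Nfkbia (0.521) were lower too.

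Lcn2, a secreted iron-siderophore binding protein, was at 807, 1035 and 394 CPM in endothelial cells of PF, HS and QS, a ratio of 0.380. An endothelial cluster that holds most of it was 16.7% of the class in HS and 11.2% in QS, and within that cluster the ratio was 0.491. Angptl4, a lipoprotein lipase inhibitor, was at 19.2, 41.8 and 15.9 CPM (0.381) and reversed.

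**Figure D4:**
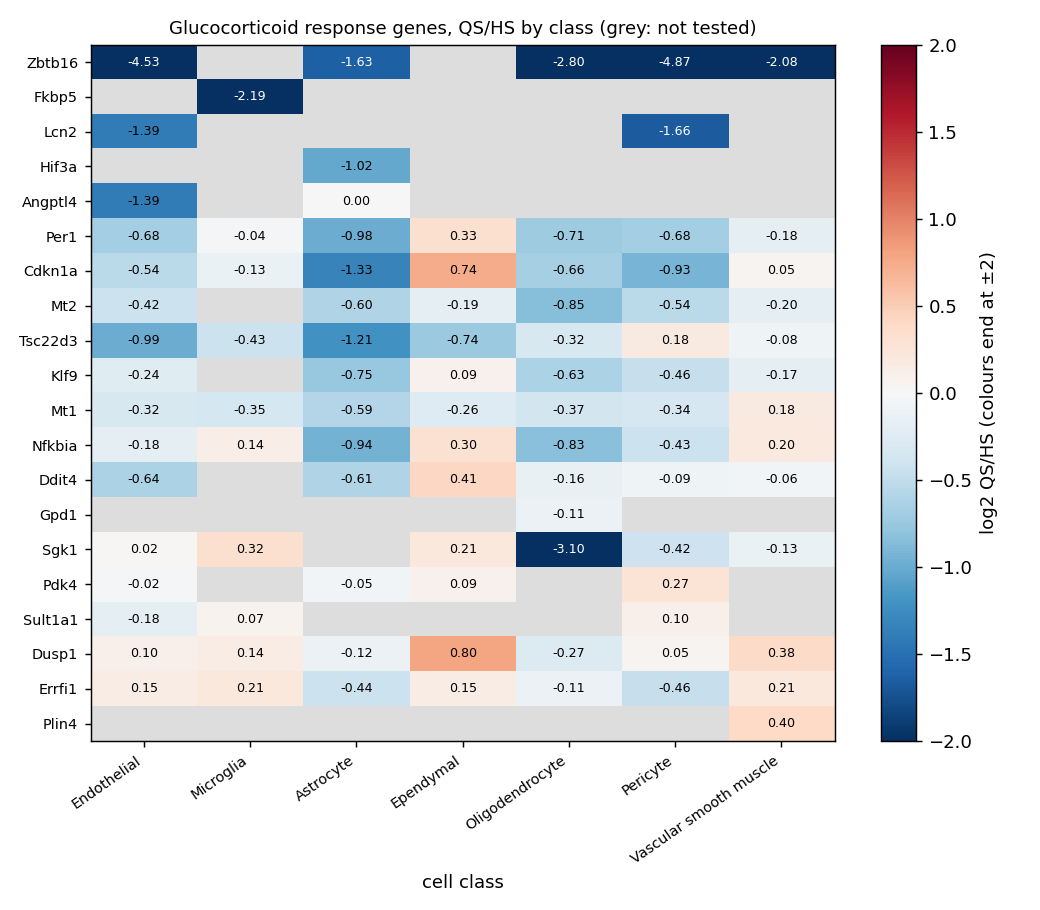
Log2 ratio of QS to HS for the 20 genes of the glucocorticoid response list in the 7 classes, blue lower and red higher in QS, grey where the gene was not tested, with colours ending at a log2 ratio of 2 either way. The lower values gather in astrocytes, oligodendrocytes, endothelial cells and pericytes, and 2 of the 12 ependymal values were called higher.

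In astrocytes the lowest ranks open to naming after Zbtb16 were those of Rhou, an atypical small GTPase (166, 241 and 78.0 CPM in PF, HS and QS, QS/HS 0.324, 0.290 to 0.361), and Megf9, a membrane protein with EGF-like repeats (88.9, 161 and 64.8, QS/HS 0.402, 0.355 to 0.455). Megf9 reversed, and Rhou was called below PF in QS at 0.472. Also up in HS and down in QS were the neural long noncoding RNA Rmst (128, 277 and 134 CPM, QS/HS 0.482) and Frmpd1 (174, 369 and 179, QS/HS 0.485), both near PF again in QS. The astrocyte genes down in HS and up in QS included Mir9-3hg, host transcript of a neural microRNA (376, 232 and 466 CPM, QS/HS 2.01, 1.88 to 2.15), and Nkx2-2, a homeodomain factor of the ventral neural tube (96.4, 55.0 and 103, QS/HS 1.87, 1.63 to 2.15). Plekho2 was at 56.9, 38.9 and 72.9 CPM (1.87, 1.59 to 2.22). The class held a pair of clusters whose shares differed between the libraries, 63.5% and 34.5% of astrocytes in PF, 45.3% and 52.0% in HS and 52.8% and 45.4% in QS. Within them the QS/HS ratios were 0.321 and 0.313 for Rhou, 0.417 and 0.402 for Megf9, 0.454 and 0.497 for Rmst, 2.03 and 1.99 for Mir9-3hg, and 2.08 and 1.69 for Nkx2-2. Each of these genes had its HS level on the same side of PF in both clusters as in the class.

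Genes of the cytosolic heat shock list were called lower in QS than in HS in 12 of 154 pairs and higher in 3, where 1.31% and 0.991% of all pairs were. In HS against PF 3 were higher and 1 lower, beside 0.495% and 0.616% of all pairs. Its median log2 QS/HS ratio lay below 0 in 6 of 7 classes, from -0.28 in pericytes to -0.04 in smooth muscle, and was 0.11 in ependymal cells. In microglia Hsph1, a nucleotide exchange factor for Hsp70, was at 188, 269 and 150 CPM in PF, HS and QS (ratio 0.559), and the inducible Hsp70 gene Hspa1b at 1151, 1491 and 907 (0.609). Both were highest in HS without being called against PF. The Hsp90 genes were called in no class, with ratios of 0.773 to 0.990 for Hsp90aa1 and 0.827 to 0.976 for Hsp90ab1.

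Astrocytes had 5 of the lower pairs, Hspb1, Hsph1, Dnajb1, Hspa1b and Hspa1a, with ratios of 0.611 to 0.660, and oligodendrocytes had 4, Dnajb1 (0.601), Hspb1 (0.618), Hspa1a (0.647) and Hsph1 (0.664). Ependymal cells had the 3 higher pairs. Dnajb1, an Hsp40 co-chaperone, was there at 448, 336 and 606 CPM in PF, HS and QS (1.804), Hspa1b at 581, 421 and 760 (1.81) and Hspa1a, which reversed, at 476, 291 and 488 (1.68). Hspa1a and Hspa1b are near-identical copies, so the division of counts between them is uncertain. In ependymal cells these 3 were lowest in HS, whereas Hspa1b was highest in HS in microglia.

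Both start-site windows of Hsph1 in the RefSeq table held a match to the consensus of the heat shock element, searched on both strands, and Hsph1 and Chordc1 were the 2 of 18 list members with a window that had one, against 0.662% of all genes with a window and 0.603% of all windows. The window at chr5:149636266-149636565 (minus strand, GRCm38.p6) is shown because Hsph1 was called lower in 3 classes. The capitals mark the match, which starts 15 bases after the start site.
Hsph1: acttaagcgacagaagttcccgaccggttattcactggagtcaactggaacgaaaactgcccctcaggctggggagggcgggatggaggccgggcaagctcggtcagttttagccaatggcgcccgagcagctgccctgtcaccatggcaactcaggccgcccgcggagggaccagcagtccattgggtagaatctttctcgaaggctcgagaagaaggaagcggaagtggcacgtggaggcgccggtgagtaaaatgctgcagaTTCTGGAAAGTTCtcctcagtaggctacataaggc

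The cold-inducible list ran opposite. Its 3 genes had 4 of 21 pairs higher in QS and 0 lower, beside 0.991% and 1.31% of all pairs. All 4 were Cirbp. In HS against PF 0 were higher and 2 lower, beside 0.495% and 0.616% of all pairs. Cirbp (chr10:80165985-80172786, plus strand), an RNA-binding protein induced by mild cold, was at 160, 89.7 and 207 CPM in pericytes of PF, HS and QS (QS/HS 2.30, 1.91 to 2.79), at 97.2, 62.0 and 122 in endothelial cells (1.97), at 137, 95.2 and 157 in smooth muscle (1.65) and at 83.5, 62.8 and 101 in microglia (1.60). HS was the lowest library in each of these. The ratios were 1.39, 1.42 and 1.25 in astrocytes, ependymal cells and oligodendrocytes, which did not reach a call. The other members, Rbm3 and Srsf5, stood between 0.996 and 1.25.

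Circadian clock genes had 9 of 79 pairs higher in QS and 5 lower, beside 0.991% and 1.31% of all pairs, with 2 higher and 7 lower in HS against PF, beside 0.495% and 0.616%. Dbp (chr7:45705088-45710203, plus strand), a transcription factor and clock output gene, was lowest in HS in each of the 5 classes in which it was tested. It was at 24.9, 11.0 and 45.4 CPM in endothelial cells of PF, HS and QS, the highest rank of that class (QS/HS 4.13, 3.67 to 4.65), at 27.5, 14.7 and 34.3 in smooth muscle (2.34), at 103, 45.8 and 87.4 in ependymal cells (1.91) and at 114, 41.6 and 77.1 in astrocytes (1.85, 1.58 to 2.18). In pericytes it was at 190, 121 and 166 (1.38) and was not called. Nr1d1, a nuclear receptor that represses clock genes, was down then up in endothelial cells (67.3, 44.8 and 79.1 CPM, QS/HS 1.77) and in ependymal cells (96.8, 59.4 and 93.3, QS/HS 1.57). The ependymal call was lost when classes were taken from clusters, at 1.41.

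Per1, a clock gene that is also a glucocorticoid target and is in both lists, was lower in QS in 4 of 7 classes, with ratios of 0.505 in astrocytes, 0.611 in oligodendrocytes, 0.622 in endothelial cells and 0.626 in pericytes. Unlike Dbp it was not called in HS against PF in these classes. Among the genes called the same way in at least 4 classes were, besides Zbtb16, Per1, Cirbp and Dbp, Banp (lower in 4 of 6) and AY036118 (higher in 4 of 6). AY036118 (chr17:39847113-39848035, minus strand) reversed in pericytes, at 188, 98.8 and 183 CPM in PF, HS and QS, and in endothelial and smooth muscle cells.

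Ependymal cells had the highest class median of the immediate early, interferon and cholesterol lists. Whether they differ from the other classes was not tested, since each class has 1 library a group. The first of these lists was the immediate early genes. Over the classes 6 of 47 AP-1 pairs were called higher in QS and 2 lower, beside 0.991% and 1.31% of all pairs. All 6 of the higher were ependymal, a class in which 1.5% of all genes were higher. The transcription factor genes Fos (2524, 1927 and 3535 CPM in PF, HS and QS, QS/HS 1.84), Jun (1718, 1236 and 2400, 1.94) and Atf3 (792, 547 and 1152, 2.11) were lowest in HS. Fosb (1.96), Junb (1.89) and Jund (1.67) were the other 3. The median log2 ratio of the list was 0.92 for QS against HS, -0.47 for HS against PF and 0.49 for QS against PF.

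Of the other immediate early genes, 14 of 16 were called higher in ependymal cells of QS, where 1.5% of all genes were, and the median log2 ratio was 0.85. Arc (chr15:74669083-74672570, minus strand), best known as an activity-dependent gene of neurons, was at 39.6, 27.3 and 83.6 CPM in PF, HS and QS (QS/HS 3.07, 2.66 to 3.54). Nr4a1, an orphan nuclear receptor, was at 191, 159 and 347 (2.18), and the zinc finger factor Egr1 at 738, 553 and 1014 (1.83). The remaining 11 had ratios of 1.52 (Klf2) to 2.01 (Csrnp1). A pair of clusters held most ependymal cells, 72.1% and 21.9% in HS and 65.5% and 25.8% in QS. Within them the ratios were 1.66 and 2.16 for Fos, 1.85 and 2.07 for Jun, 1.69 and 3.07 for Atf3, and 3.19 and 3.94 for Arc.

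Astrocytes had the opposite sign in the same lists. Fos was at 463, 592 and 356 CPM in PF, HS and QS (QS/HS 0.602), and Fosb (0.577), Klf4 (0.524), Ier3 (0.567) and Ier2 (0.667) were called lower. The list medians there were -0.40 for AP-1 and -0.44 for the other immediate early genes. In pericytes Maff (0.550) and Csrnp1 (0.653) were lower, and in smooth muscle Arc was higher (1.60).

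The second ependymal list was the interferon response. Over the 7 classes 14 of 87 pairs were higher in QS than in HS and 7 lower, beside 0.991% and 1.31% of all pairs, and 9 of the 15 tested in ependymal cells were among the higher. Ifit3 (chr19:34583531-34588731, plus strand), an RNA-binding antiviral effector, was at 43.4, 34.5 and 124 CPM in PF, HS and QS and was the highest ependymal gene open to naming (QS/HS 3.60, 3.18 to 4.09). Isg15, a ubiquitin-like modifier, was at 29.3, 24.4 and 82.0 (3.36), Ifit1 at 21.95, 19.0 and 58.0 (3.05), and the chemokine Cxcl10 at 44.0, 67.4 and 145 (2.15). All but Cxcl10 were lowest in HS. In QS microglia Isg15 stood at 528 CPM and Ifit1 at 217, which were 30.4% and 36.7% of their highest class levels. Their ependymal levels were smaller shares still, and the part of RNA from other cells was not tested. Ifit3b (3.26), Bst2 (2.01), Oasl2 (1.81) and Xaf1 (1.72) were also higher, and the list's median log2 ratio was 0.78. Ifit3 and Ifit3b are near-identical neighbours, so the division of counts between them is uncertain. In the larger ependymal cluster the ratio was 3.96 for Ifit3 and 3.97 for Isg15, and in the smaller one 2.80 and 1.06.

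In microglia the higher interferon genes were Ifit1 (116, 114 and 217 CPM in PF, HS and QS, QS/HS 1.90, 1.78 to 2.03), Isg15 (331, 306 and 528, 1.72, 1.654 to 1.795), Cxcl10 (824, 751 and 1198, 1.60), Ifit3b (1.81) and Ifit2 (1.63). Ifnb1, which encodes interferon beta itself, was at 206, 191 and 337 (1.77, 1.68 to 1.86), so that these 3 libraries had PF and HS close together and QS above both. A microglial cluster that was 12.96% of the class in HS and 21.8% in QS moved with them. Within it the ratios were 1.29 for Ifit1, 1.29 for Isg15 and 1.199 for Ifnb1, below the threshold for a call, while in the main microglial cluster they were 1.57, 1.56 and 1.55.

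Other members had levels that were highest in PF and lowest in QS. Ifitm3, a membrane protein that restricts viral entry, was at 241, 149 and 81.6 CPM in microglia (QS/HS 0.547), and Ifi27l2a at 285, 194 and 116 (0.600). Both were also lower in oligodendrocytes (0.592 and 0.380), Ifitm3 in astrocytes (0.654) and Oasl2 in pericytes (0.505). Over the 7 classes the level of Ifitm3 had a median of 10.1% of its highest class level. In oligodendrocytes the largest HS cell held 11.8% of the Ifitm3 UMIs and 13.1% of those of Ifi27l2a. The part of RNA from other cells in these values was not tested.

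The start-site windows of Ifit3 and Isg15 are shown because these had the highest QS/HS ratios of the list in ependymal cells. Of the list's 19 members with a window, 13 held a match to the consensus of the interferon-stimulated response element, searched on both strands, against 3.99% of all genes with a window and 3.44% of all 32851 windows of that length. In Ifit3 (chr19:34583279-34583578, plus strand, GRCm38.p6) 2 matches lie 122 and 156 bases before the start, and in Isg15 (chr4:156200769-156201068, minus strand) 3 overlapping matches lie 66 to 78 bases before it. Capitals mark the matches.
Ifit3: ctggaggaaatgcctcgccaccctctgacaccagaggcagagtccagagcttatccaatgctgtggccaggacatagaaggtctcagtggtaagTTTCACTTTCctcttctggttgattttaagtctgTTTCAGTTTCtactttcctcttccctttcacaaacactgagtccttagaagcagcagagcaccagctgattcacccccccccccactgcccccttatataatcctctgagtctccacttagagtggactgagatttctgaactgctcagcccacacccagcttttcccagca
Isg15: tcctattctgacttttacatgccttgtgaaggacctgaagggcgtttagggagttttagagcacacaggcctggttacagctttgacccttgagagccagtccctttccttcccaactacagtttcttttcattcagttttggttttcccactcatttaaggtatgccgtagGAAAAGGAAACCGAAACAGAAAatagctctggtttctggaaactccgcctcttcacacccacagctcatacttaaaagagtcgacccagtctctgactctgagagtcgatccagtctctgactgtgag

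The third list was cholesterol synthesis and uptake. Its median log2 ratio was above 0 in all 7 classes. Over these 13 of 81 pairs were higher in QS than in HS and 0 lower, where 0.991% and 1.31% of all pairs were. In HS against PF 0 were higher and 5 lower, beside 0.495% and 0.616% of all pairs. Ependymal cells had 7 of 14 pairs higher, with a median log2 ratio of 0.62. Insig1, a sterol sensor of the endoplasmic reticulum, was at 29.0, 18.7 and 48.9 CPM in PF, HS and QS (2.62), and Hmgcs1, the synthase that feeds the pathway, at 111, 85.4 and 176 (2.06). Both were lowest in HS. Idi1 was at 27.5, 23.1 and 55.8 (2.42, 2.06 to 2.85), and Msmo1 (1.72) and Cyp51 (1.59) were also higher.

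Mural cells shared part of this. In pericytes 3 of 9 pairs were higher, Fdps (1.63) and Insig1 (1.51) among them, with a list median of 0.53. In smooth muscle 3 of 9 were higher, Msmo1 (1.62) and Idi1 (1.53) among them, with a median of 0.39.

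Ranked ependymal genes lower in QS were Slc24a4, a potassium-dependent sodium/calcium exchanger (140, 209 and 116 CPM in PF, HS and QS, QS/HS 0.558), and Rnf144b, a ubiquitin ligase (38.0, 50.6 and 29.3, 0.580). Sertad1, a cell cycle regulator, was down then up (86.2, 54.9 and 95.7, QS/HS 1.74). In pericytes the low ranks after Zbtb16 were Baiap2 (53.5, 67.7 and 31.9, 0.471) and Rnf152, a lysosomal ubiquitin ligase that reversed (49.2, 87.5 and 45.0, 0.514), and the high ranks besides Cirbp included Lrrc32, a surface protein that holds latent TGF-beta (65.0, 49.1 and 98.5, 2.01).

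In smooth muscle, Otogl (53.1, 70.7 and 35.2 CPM in PF, HS and QS, QS/HS 0.499) and Galnt17, a glycosyltransferase family member (163, 222 and 115, 0.517), were the lowest of those open to naming after Zbtb16. The highest of those open to naming were Slc16a11 (58.6, 40.2 and 71.4, 1.78), the Notch target Heyl (136, 99.7 and 169, 1.69) and elastin, Eln (79.2, 46.3 and 76.6, 1.65), of which Eln was called lower in HS than in PF and reversed. Ndst3, a heparan sulfate modifying enzyme, was up then down (75.9, 121 and 74.5, QS/HS 0.617) and lost its call in classes taken from clusters, at 0.673. In microglia the lowest rank open to naming after Fkbp5 and Ccnd3 was that of the peptide transporter Slc15a2 (60.1, 69.2 and 38.5, QS/HS 0.556).

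The remaining lists are given by their counts in QS against HS, where 0.991% of all pairs were higher and 1.31% lower. Cytokines and chemokines had 4 of 34 pairs higher and 3 lower. The higher were Cxcl10 in microglia and ependymal cells and the chemokine Ccl4 in astrocytes (1.55) and oligodendrocytes (1.57). The lower were the chemokine Ccl3 in pericytes (0.616) and smooth muscle (0.590) and Cxcl10 in smooth muscle (0.663). Single cells weighed heavily in these. In pericytes 1 HS cell held 58.4% of the Ccl3 UMIs, and the largest QS cell 10.1%. In smooth muscle the largest cell of HS and QS held 42.65% and 40.58% for Cxcl10, and 22.99% and 24.84% for Ccl3. Myelin genes had 3 of 42 higher, none of them in oligodendrocytes, the integrated stress response 1 of 34 higher, and leukocyte adhesion 1 of 11 lower, Icam1 in pericytes at 0.585. Antioxidant genes were called in 0 of 70 pairs and mitochondrial chaperones in 0 of 48. Of 101 pairs of endoplasmic reticulum chaperones 1 was lower, Xbp1 in endothelial cells at 0.620. Nuclear genes of oxidative phosphorylation had 1 of 140 lower, glycolysis 2 of 95 lower, hypoxia 2 of 33 lower, NF-kB and its feedback 1 higher and 2 lower of 53, and MHC class I 1 of 51 lower. The hypoxia pairs were both Ddit4 and the lower NF-kB pairs both Nfkbia, which are also glucocorticoid list members and were counted there. The mitochondrially encoded genes had 5 of 82 lower, all of them mt-Nd3 at ratios of 0.539 to 0.711. Homeostatic microglial genes had 1 of 26 lower, Sall1 in ependymal cells. Disease-associated microglial genes had 1 of 29 higher, Trem2 in smooth muscle, so neither list had a call in microglia. MHC class II had 2 higher and 6 lower of 14, and there too single cells weighed heavily, 1 pericyte-class cell of HS holding 87.9% of that class's H2-Aa UMIs.

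**Figure D5:**
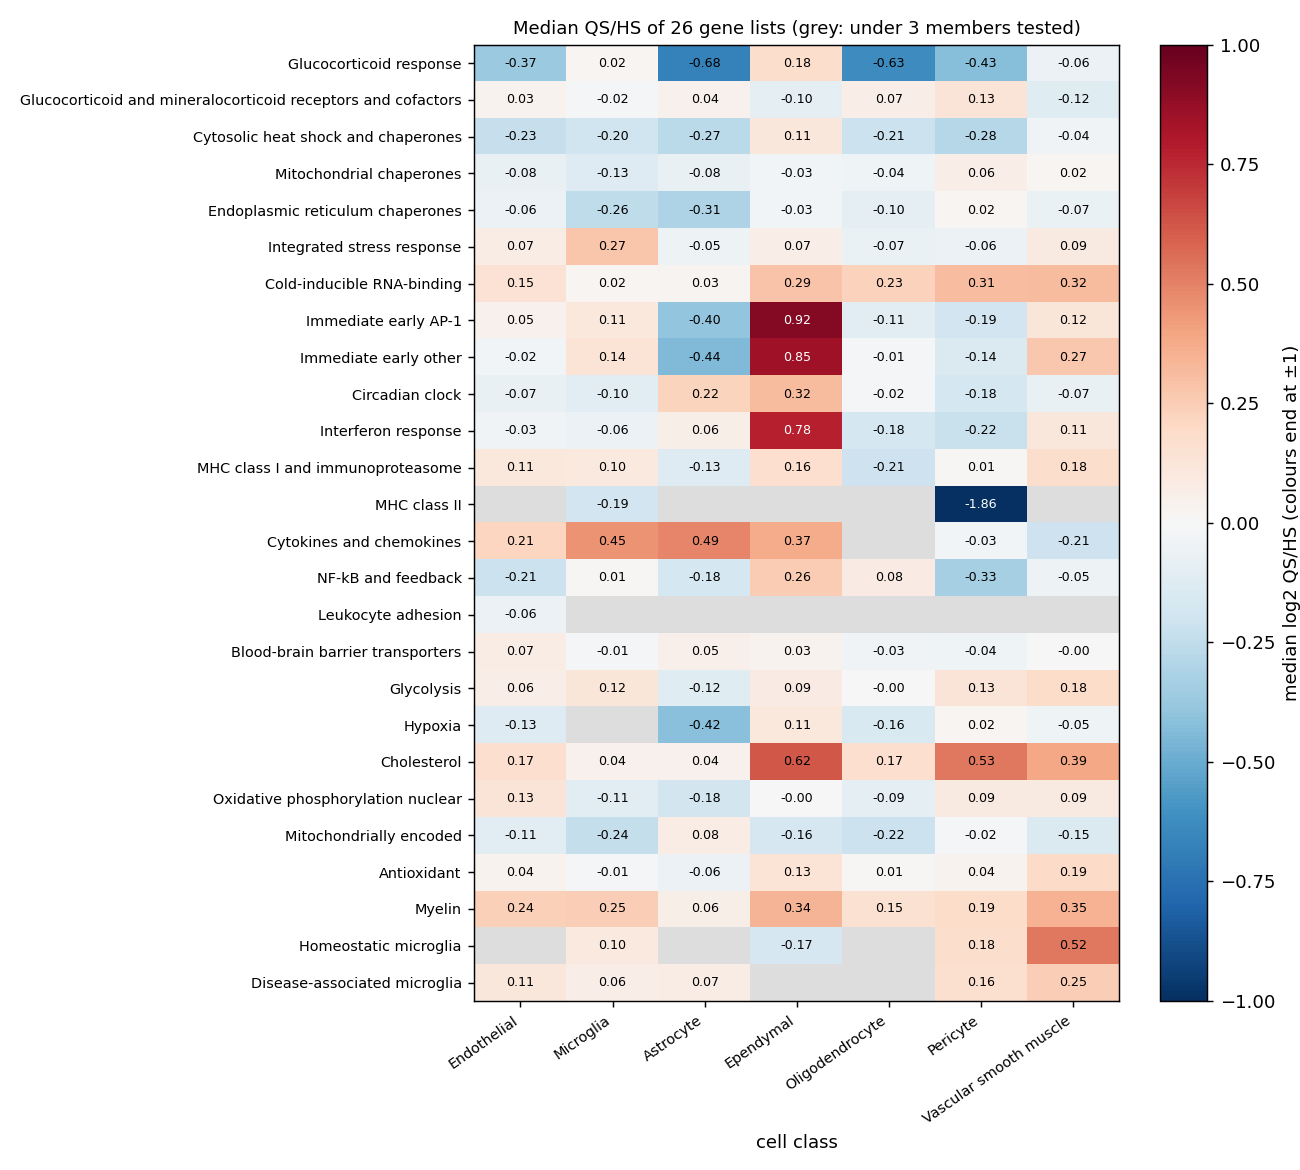
Median log2 ratio of QS to HS of 26 gene lists in the 7 classes, red above and blue below 0, grey where fewer than 3 members were tested, with colours ending at 1 either way. The ependymal column is high for the immediate early (0.92 and 0.85), interferon (0.78) and cholesterol (0.62) lists, and the glucocorticoid row is lowest in astrocytes (-0.68).

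Markers of cells outside the 7 classes also moved within them. The summed pituitary markers were lower in QS in 7 of 7 classes, at 47.7 to 86.3 CPM in HS and 1.85 to 35.1 in QS, and 4 of the 9 were at 0 UMIs in QS. Growth hormone, Gh, was at 29.8 to 55.3 CPM in HS and at 0 in PF and QS. Erythroid markers were higher in QS in 7 of 7 classes (15.5 to 1365 CPM in HS and 35.4 to 3621 in QS), and the highest ratio in pericytes was of that kind, Hba-a1 at 13.4, 4.52 and 102 CPM in PF, HS and QS. Neutrophil, tanycyte and proliferation markers were lower in QS in 7 of 7 classes, and oligodendrocyte markers were higher in the 6 other classes, at 80.1 to 145 CPM in HS and 115 to 205 in QS. Their part in the results above was not tested. Genes named by rank or as reversing had at least 20% of their highest class level in the class named. This was not asked of list members, some of which fell below it. Dbp, for example, had 19.5% in endothelial cells and 14.7% in smooth muscle.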

How the data were processed

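The authors deposited whole-number UMI counts per gene and cell barcode for 3 libraries (10x Genomics 3' chemistry, version 3). The counts were made with Cell Ranger against mm10, as version 7.0.1 per the file headers and 5.0.0 per the submitters' processing notes. Seurat 3.1.2 is in those notes too. The sources used here do not say whether intronic reads or strand entered the counting.

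Barcodes with at least 500 UMIs and at most 20% mitochondrial UMIs were kept. A cell's class was the marker list with the highest sum per 10000 UMIs, with at least 3 markers detected and the second list at no more than 0.33 of the first. These limits were set after marker levels had been seen, and 8.95% to 10.5% of the kept cells of a library lay near the limit of 0.33. Class names rest on RNA markers alone. Doublets stayed in. Scrublet marked 2.13% to 2.54% of the classed cells of a library, and leaving these out was an alternative. UMIs were summed per gene, class and library and given as CPM. Genes were compared at a mean of at least 25 CPM and at least 100 UMIs over the 3 libraries, without 78 features that share a symbol. Ratios carry exact conditional binomial 95% intervals, shares exact Clopper-Pearson ones. Both cover counting error only, and with 1 library a group there is no p-value.

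Named genes were the 3 highest and 3 lowest ratios of a class and up to 4 reversing genes, where the higher library had 50 CPM or more, the lower had a UMI, and the class had at least 20% of the highest class level, leaving out mitochondrial, ribosomal, haemoglobin and provisional Gm and Rik genes. Up to 6 members of each list, and genes called the same way in at least 4 classes, were also open to naming. Gh, Hba-a1, 6330403K07Rik and the list members beyond these were chosen after their values were seen. A few genes picked this way are not reported here. Members, lists and rules were chosen with earlier results of these data known. Coordinates are those of GENCODE M21 on GRCm38, matched by identifier for 32158 of 32285 features. Start-site windows are from RefSeq (GRCm38.p6). The response element consensus letters came from general knowledge and no file holds them, so they are given by name. Zbtb16 and Arc have no window in its table.

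Clusters for the within-cluster values came from Scanpy 1.11.5 and leidenalg 0.10.2 (2000 variable genes, 30 components, 15 neighbours, resolution 1, seed 0). TMM scaling used edgeR 4.0.16 in R 4.3.3, for an alternative only. The rest ran in Python 3.11.15 with NumPy 2.4.6, SciPy 1.17.1 and pandas 2.3.3. The ratio and interval code was tested on simulated data.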

Additional observations from a re-analysis of the deposited data

Results flagged for a closer look

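Several results had opposite signs between classes in QS against HS. None of these differences was tested, since each class has 1 library a group. The AP-1 list had a median log2 ratio of -0.40 in astrocytes and 0.92 in ependymal cells, and the other immediate early genes -0.44 and 0.85. The interferon list was at -0.22 in pericytes and 0.78 in ependymal cells, and the NF-kB list at -0.33 and 0.26.

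Single genes were called opposite ways in different classes. Arid5a, which encodes an RNA-binding protein of inflammatory transcripts, had QS/HS ratios of 0.615 in endothelial cells, 0.591 in pericytes and 1.77 in ependymal cells. Vcl, the cytoskeletal linker vinculin, was at 0.640 in endothelial cells, 0.592 in astrocytes and 1.504 in ependymal cells. Fas, a death receptor, was at 0.493 in endothelial cells and 1.58 in ependymal cells, and Maff, a small basic leucine zipper factor, at 0.550 in pericytes and 1.96 in ependymal cells. Tcf7l1, a transcription factor of the Wnt pathway, was at 1.55 in astrocytes and 0.566 in smooth muscle cells. Of the 5 genes, 4 were higher in ependymal cells.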

How the results depend on the processing

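Under 6 alternatives (at least 1000 UMIs a barcode, Scrublet doublets out, classes from Leiden clusters, cells weighted alike, TMM scaling, 5% free RNA removed) the counts of pairs called higher, called lower and reversing over the 7 classes together stayed within 1.5 times. By class some moved by more. In smooth muscle the 62 higher became 31 with Leiden classes, the 7 up then down 11 without doublets, and the 15 down then up 5 without doublets and 7 with Leiden classes. In ependymal cells the 2 up then down became 5 with Leiden classes, 7 with cells weighted alike and 4 with TMM, and the 7 down then up 17 with free RNA removed. With cells weighted alike the 109 higher and 24 down then up of pericytes became 166 and 39, and the 7 down then up of endothelial cells 3. With free RNA removed the 2 down then up of oligodendrocytes became 1. Of the 1011 called pairs, 995, 903, 777, 781, 967 and 911 were called again, in that order, and of the 186 reversing pairs 183, 158, 129, 131, 176 and 167. TMM factors were 0.973 to 1.04. Other choices set the counts by construction, through the number of genes tested or the fold. A mean of at least 100 CPM left 111 pairs higher, 160 lower, 31 up then down and 12 down then up. No CPM minimum gave 1742, 2431, 464 and 449. A fold of 2 gave 51, 76, 13 and 9. Of 371 named-gene values under the alternatives, 346 kept their call and direction, 25 fell short of it and 0 reversed. A fold of 2 accounts for 23 of the 25, the others being Nr1d1 in ependymal cells (1.41) and Ndst3 in smooth muscle (0.673) with Leiden classes. Of 210 list medians, 187 moved by less than the margin used, 19 by more, and 4 changed sign: cytokines in endothelial cells at -0.0268 with cells weighted alike, and myelin genes at -0.22 in endothelial cells, -0.22 in microglia and -0.36 in smooth muscle with free RNA removed. The cause was not tested. No paired analysis was possible because each group has 1 library, and no library could be left out for the same reason.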

Other observations

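Classes with under 200 cells in a library were not compared gene by gene, and a few genes of the main results are given there as values. Zbtb16 was at 14.5, 106 and 17.9 CPM in PF, HS and QS in tanycytes (QS/HS 0.169), at 76.7, 173 and 27.3 in fibroblasts (0.158) and at 43.9, 84.8 and 28.2 in border-associated macrophages (0.332). It was highest in HS in each of these, while its ratio in T and NK cells was 1.26. Fkbp5 was at 54.0, 186 and 23.7 CPM in border-associated macrophages (0.127), and its ratio was 0.471 in tanycytes and 0.197 in fibroblasts. Ccnd3 had a ratio of 0.227 in border-associated macrophages.

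Dbp in tanycytes was at 68.7, 27.4 and 90.5 CPM (QS/HS 3.30), lowest in HS as in the larger classes. Cirbp had ratios of 2.63 in T and NK cells and 2.46 in fibroblasts. The tanycyte level of Ifit3 was 190, 416 and 439 CPM (1.05), so that HS and QS were close there. The ratio of Ifit3 was 0.368 in border-associated macrophages and 0.215 in fibroblasts. These values rest on 46 fibroblasts, 80 tanycytes, 89 border-associated macrophages and 58 T and NK cells in QS.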
